A study of Mus musculus with 8 samples.

Results

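Atp2a2, Pln, Ryr2, Casq1 and Casq2, 5 genes of calcium handling by the sarcoplasmic reticulum, the internal calcium store of muscle cells, were followed in the infarcted mouse left ventricle. Every probe set annotated to one of these genes alone was taken, which gave 11 probe sets of the 22626 on each array, for 5 genes of the 12393 with a probe set of their own. Atp2a2 had 4 probe sets, Pln 3, Ryr2 2, and Casq1 and Casq2 1 each. RNA came from the left ventricle of male mice aged 2 to 4 months, of the common inbred strain C57BL/6 or of MRL/MpJ, a strain known for healing ear wounds with little scarring. The hearts were untreated, with no sham operation, or had the left anterior descending coronary artery tied off (LAD ligation), which infarcts the ventricle, and were taken 3, 30 or 60 days later. A single array was run for every pairing of a strain with a time, 8 in all, so no group has a replicate, and the labels do not say whether an array held 1 animal or several. How far p-values speak for animals in general is therefore limited to the spread between these 8 arrays.

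At each heartbeat a little calcium enters the cardiomyocyte and opens the ryanodine receptor (Ryr2), through which the sarcoplasmic reticulum releases much more. The calcium pump SERCA2 (Atp2a2) then returns it to the store, phospholamban (Pln) holds the pump back until it is phosphorylated, and calsequestrin binds calcium inside the store. Casq2 is the cardiac calsequestrin and Casq1 the one of fast skeletal muscle. Reduced pump and release-channel expression are well known in failing hearts, and a higher ratio of pump to phospholamban goes with faster relaxation.

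The deposited values are MAS5 signals, a summary of the brightness of a probe set on a linear scale. Array-wide agreement was checked over the 8195 genes kept for testing: the 21 pairs without the C57BL/6 day 30 array correlated at r of 0.884 to 0.948 and the 7 pairs with it at 0.844 to 0.877. The highest signal of that array was 75193, against at most 38118 in the others, so values that it moved most are also given without it. All 14 cardiomyocyte marker genes, such as Myh6 and Tnnt2, passed the filter on low signal, and 0 stood at a signal of 0. Their summed signal was 217761 and 247246 in the untreated hearts and 214922 to 373324 in the ligated ones. The summed signal of 10 fibroblast markers was 9399 and 9746 in untreated hearts and 23106 to 56376 in ligated hearts, and that of 10 macrophage markers was 4444 to 6622 and 8788 to 12167. In such tissue RNA, fewer cells of a type and less RNA per cell cannot be told apart.

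The question put to the calcium-handling genes was whether their signals differed after ligation and between the strains. After ligation Ryr2 stood lower than in untreated hearts on both of its probe sets, Casq2 stood lower on days 3 and 60, Pln lay close to its untreated level, and the 4 probe sets of Atp2a2 disagreed in direction. Between the strains, Casq1 was the member that stood higher in MRL/MpJ in 4 of 4 pairs of arrays. None of these differences passed: limma, fitted over all 8195 genes with strain and time point, called 0 of the 5 members at an adjusted p under 0.05 in each of 7 comparisons. The same test called 16 genes, or 0.195%, for ligated against untreated hearts. It called 0% on day 3, 0.0122% on day 30 and 0.0366% on day 60 against untreated, 0.22% between strains, and 0% for days 30 and 60 against day 3 and for the strain difference in ligated against untreated hearts. At an unadjusted p under 0.05 the members counted 1 on day 30 (Atp2a2), 1 between strains (Casq1) and 0 in the others. Among all genes that share was 10.4% for ligated against untreated hearts, 6.53% on day 3, 11% on day 30, 10.6% on day 60, 5.54% for the later days against day 3, 7.96% between strains and 2.04% for the strain difference of the response. The median difference of the 5 members between ligated and untreated hearts was a log2 of 0.017, beside -0.027 over all genes tested. All differences below are log2 values of the signal with an offset of 28.6 added.

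**Figure D1:**
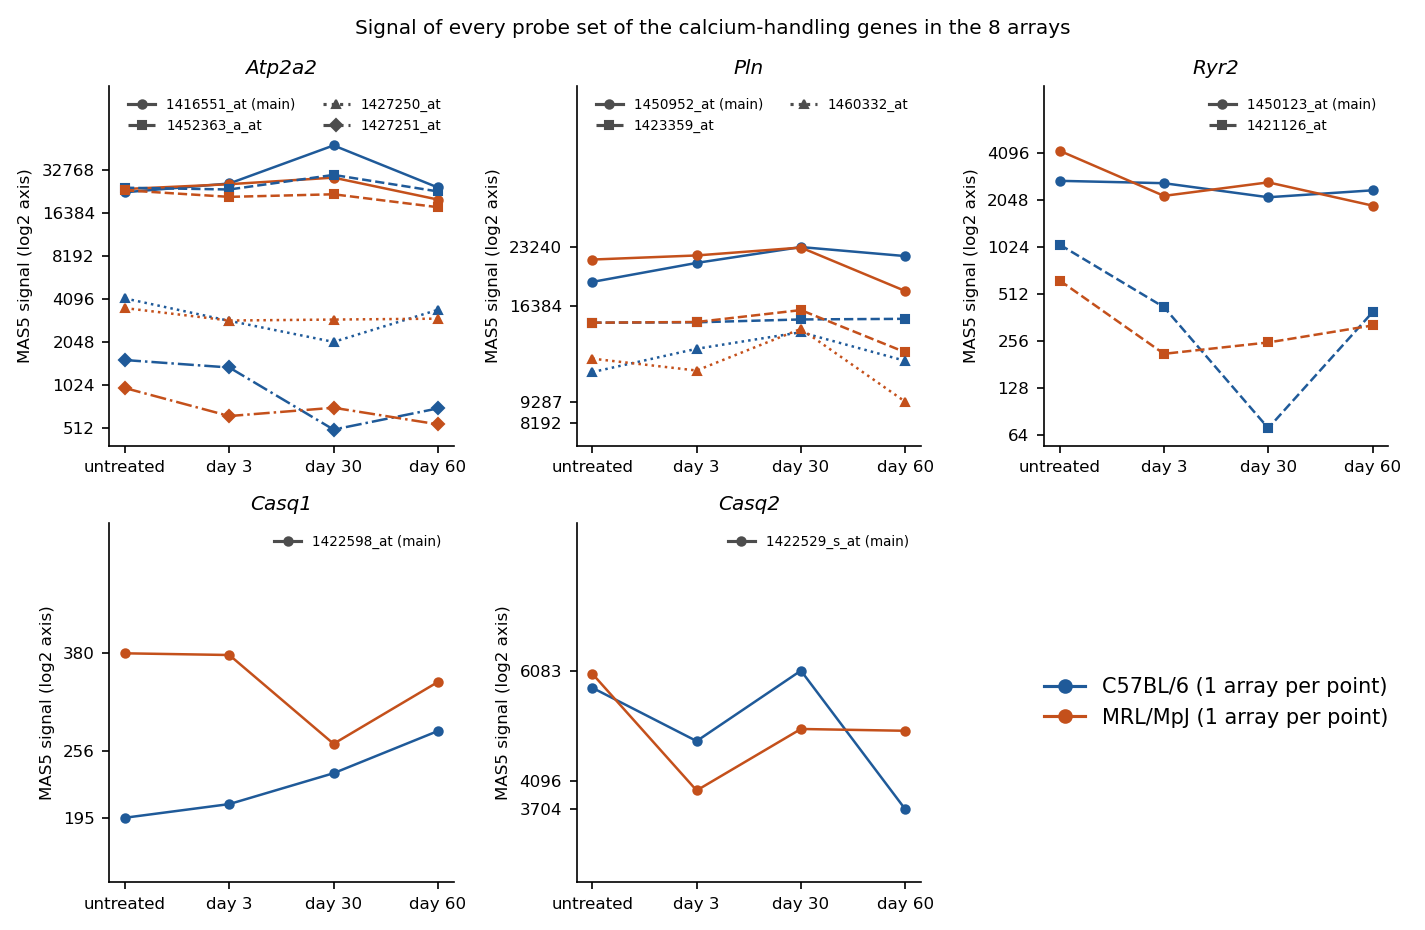
MAS5 signal (log2 axis) of each of the 11 probe sets in the 8 arrays, 1 panel per gene, by time point; blue is C57BL/6, orange MRL/MpJ, and each point is 1 array. The 2 Ryr2 probe sets start highest in untreated hearts, the Pln probe sets stay nearly level, and the bright and dim Atp2a2 probe sets run in different directions on day 30.

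The pump gene Atp2a2 was among the brightest probe sets of every array on its main probe set, 1416551_at, which ranked between 4 and 9. Untreated hearts gave signals of 22772 in C57BL/6 and 23986 in MRL/MpJ. On day 3 they were 26219 and 25927, on day 30 they were 48350 and 28813, and on day 60 they were 24592 and 20256. The C57BL/6 day 30 array thus stood alone at the top, and the other 7 arrays lay within 20256 to 28813. In the order of the 8 levels, the step down from that array was the only one larger than the fitted spread of a difference between arrays (log2 0.75 against 0.39). Arrays of day 3 and of day 30 did not overlap with the untreated ones and stood above them.

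The day 30 difference of this probe set was a log2 of 0.67 (SE 0.27, 2 arrays against 2, limma adjusted p = 0.429), and at 0.34 without the C57BL/6 day 30 array. For all ligated against untreated hearts it stood at 0.26 (SE 0.22, 95% interval -0.27 to 0.78, limma adjusted p = 0.731). That value was 0.14 without the C57BL/6 day 30 array, 0.044 without the untreated C57BL/6 array and 0.47 without the untreated MRL/MpJ array. After quantile normalization, which gives every array the same distribution of values, that difference was -0.021. The day 30 difference was then 0.039.

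A second bright Atp2a2 probe set, 1452363_a_at, gave 24493 and 23506 in untreated hearts of C57BL/6 and MRL/MpJ and 17914 to 30100 in ligated ones. Its difference from untreated was a log2 of -0.078 over all ligated arrays (SE 0.20, limma adjusted p = 0.921). Both dimmer probe sets of the gene stood lower after ligation. On 1427250_at the untreated hearts gave 4131 and 3537 and the ligated ones 2053 to 3441, without overlap, with a log2 difference of -0.43 (SE 0.22, limma adjusted p = 0.560). On 1427251_at the signals were 1534 and 978 in untreated hearts, 1361 and 624 on day 3, 502 and 713 on day 30, and 705 and 546 on day 60, in C57BL/6 and MRL/MpJ respectively. There the C57BL/6 day 3 array stayed with the untreated ones, and all arrays of days 30 and 60 lay below both. The difference over all ligated arrays was -0.78 (SE 0.30, limma adjusted p = 0.436), and -0.59 without the C57BL/6 day 30 array.

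Over the 8 arrays the main Atp2a2 probe set correlated at r = 0.80 with the other bright one and at r = -0.81 and -0.39 with the dim ones; without the C57BL/6 day 30 array these were 0.47, -0.36 and 0.084 over 7 arrays. These correlations describe arrays that share their scaling. Atp2a2 is known to make several transcripts, among them those for SERCA2a and SERCA2b, and the annotation used here does not say which transcript each probe set reads. A single direction for the pump gene after ligation could therefore not be given from these signals.

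Pln, the gene for the pump's inhibitor, varied less than any other member. Its main probe set, 1450952_at, gave 18899 and 21581 in untreated C57BL/6 and MRL/MpJ hearts. It gave 21156 and 22113 on day 3, 23241 and 23175 on day 30, and 22031 and 17909 on day 60. The highest signal was 1.3 times the lowest, and no step between neighbours in the order of the 8 levels exceeded the fitted spread of a difference between arrays (log2 0.34). Both day 30 arrays lay above both untreated ones, and the lowest array was MRL/MpJ on day 60.

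All 3 Pln probe sets had their lowest signal in the MRL/MpJ day 60 array, at 12454 on 1423359_at and 9287 on 1460332_at. They correlated with each other at r of 0.82 to 0.86 over the 8 arrays. For ligated against untreated hearts the main probe set gave a log2 of 0.092 (SE 0.20, limma adjusted p = 0.900), with a 95% interval from -0.36 to 0.55, and the others gave -0.013 and 0.070. The interval leaves room for a moderate change in either direction.

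Set against each other, the main probe sets of Atp2a2 and Pln gave a log2 signal ratio of 0.27 for the untreated C57BL/6 heart and 0.15 for the MRL/MpJ one. The ratio was 0.31 and 0.23 on day 3, 1.06 and 0.31 on day 30, and 0.16 and 0.18 on day 60. Probe sets differ in brightness for the same amount of RNA, so only the differences between arrays can be read. Ligated hearts stood 0.16 above untreated ones (SD 0.34 over 6 ligated arrays and 0.082 over 2 untreated ones; exact permutation test, two-sided, p = 0.5). Without the C57BL/6 day 30 array this difference was 0.027. MRL/MpJ stood 0.23 below C57BL/6 over the 4 pairs (log2 -0.23, SD 0.35; exact sign-flip permutation test, two-sided, p = 0.250). Without the day 30 pair it was -0.059 over the other 3 pairs. The smallest p these designs allow is 0.0714 and 0.125, so neither can reach the threshold. With the dim Atp2a2 probe set 1427251_at in place of the bright one, ligated hearts stood at -0.87, so the sign of the ratio's change turned with the probe set.

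Ryr2, the release channel, was highest in the untreated hearts. On its main probe set, 1450123_at, the untreated signals were 2714 in C57BL/6 and 4229 in MRL/MpJ. They were 2622 and 2174 on day 3, 2131 and 2654 on day 30, and 2360 and 1883 on day 60. Every ligated array lay below both untreated ones, though C57BL/6 on day 3 was close to its own untreated level. Among the 5 members Ryr2 alone showed this separation of all 6 ligated arrays from the 2 untreated ones, which 7.11% of all genes tested showed in the same direction.

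The fitted difference of the main probe set was a log2 of -0.56 (SE 0.25, 95% interval -1.13 to 0.011, unadjusted p = 0.0534, limma adjusted p = 0.482). By day it was -0.50 on day 3, -0.51 on day 30 and -0.68 on day 60 (SE 0.30 each, 2 arrays against 2). Much of this lay with the untreated MRL/MpJ array, the only one set off from its neighbour in the order of levels by more than the fitted spread (a step of log2 0.63 against 0.43). Without that array the difference was -0.20, and without the untreated C57BL/6 array it was -0.92. Within MRL/MpJ the log2 change from untreated was -0.95, -0.67 and -1.15 on days 3, 30 and 60, and within C57BL/6 it was -0.050, -0.35 and -0.20, each from 1 array against 1. The strain difference of the response was -0.73 (SE 0.48, limma adjusted p = 1), so these arrays did not tell the strains' responses apart.

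The dimmer Ryr2 probe set, 1421126_at, showed a larger gap. The untreated C57BL/6 heart gave 1059 and the MRL/MpJ heart 624. After ligation the signals were 421 and 212 on day 3, 70.7 and 250.2 on day 30, and 391 and 322 on day 60. Here too every ligated array lay below both untreated ones, and C57BL/6 on day 30 was the lowest, below the filter signal of 121. The difference was a log2 of -1.61 (SE 0.44, unadjusted p = 0.00682, limma adjusted p = 0.267 over 13280 probe sets), and -1.26 (SE 0.20, limma adjusted p = 0.0897) without the C57BL/6 day 30 array. Of the 11 member probe sets, 3 were lower in all ligated arrays without overlap (both of Ryr2 and Atp2a2 1427250_at), beside 6.75% of all probe sets tested, and 0 were higher, beside 6.44%. limma called 0 of the 11 for ligated against untreated hearts at an adjusted p under 0.05, beside 0.211% of all probe sets. At an unadjusted p under 0.05 it counted 2 of the 11. Over genes that share was 10.4%, and over all probe sets it was not counted. On this probe set the untreated MRL/MpJ heart stood below the untreated C57BL/6 heart, opposite to the main one.

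Casq2, the cardiac calsequestrin, was read by 1 probe set, 1422529_s_at. Its signals were 5721 in C57BL/6 and 6016 in MRL/MpJ untreated, 4727 and 3960 on day 3, 6083 and 4936 on day 30, and 3704 and 4904 on day 60. Arrays of days 3 and 60 lay below both untreated arrays, while the C57BL/6 day 30 array was the highest of all 8. No step between neighbouring levels exceeded the fitted spread of a difference (log2 0.37). The differences from untreated were a log2 of -0.44 on day 3, -0.098 on day 30 and -0.46 on day 60 (SE 0.26 each, limma adjusted p = 0.826, 0.906 and 0.596). Leaving out the day 60 array of C57BL/6 gave -0.18 for that day and leaving out that of MRL/MpJ gave -0.74, and the day 3 value was -0.28 without the MRL/MpJ day 3 array. On day 30 it was -0.28 without the C57BL/6 array and 0.089 without the MRL/MpJ array. Over all ligated arrays the difference was -0.33 (SE 0.22, 95% interval -0.83 to 0.17, limma adjusted p = 0.641), and -0.39 without the C57BL/6 day 30 array.

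By day, 2 of the 5 members (Ryr2 and Casq2) lay lower on day 3 without overlap with untreated hearts and 1 (Atp2a2) lay higher, beside 17.6% and 21.8% of all genes. On day 30, 1 member (Ryr2) lay lower and 2 (Atp2a2 and Pln) higher, beside 20.7% and 18.6%. On day 60, 2 (Ryr2 and Casq2) lay lower and 0 higher, beside 29.9% and 20.7%. With 5 members each gene makes up a large share of such a count, and the counts were not tested against the shares over all genes. Relative to the median of the cardiomyocyte markers in the same array, Ryr2 stood at a log2 of -0.53 and Casq2 at -0.30 over all ligated arrays. By day that reference gave -0.45, -0.65 and -0.48 for Ryr2 and -0.38, -0.24 and -0.26 for Casq2 on days 3, 30 and 60.

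**Figure D2:**
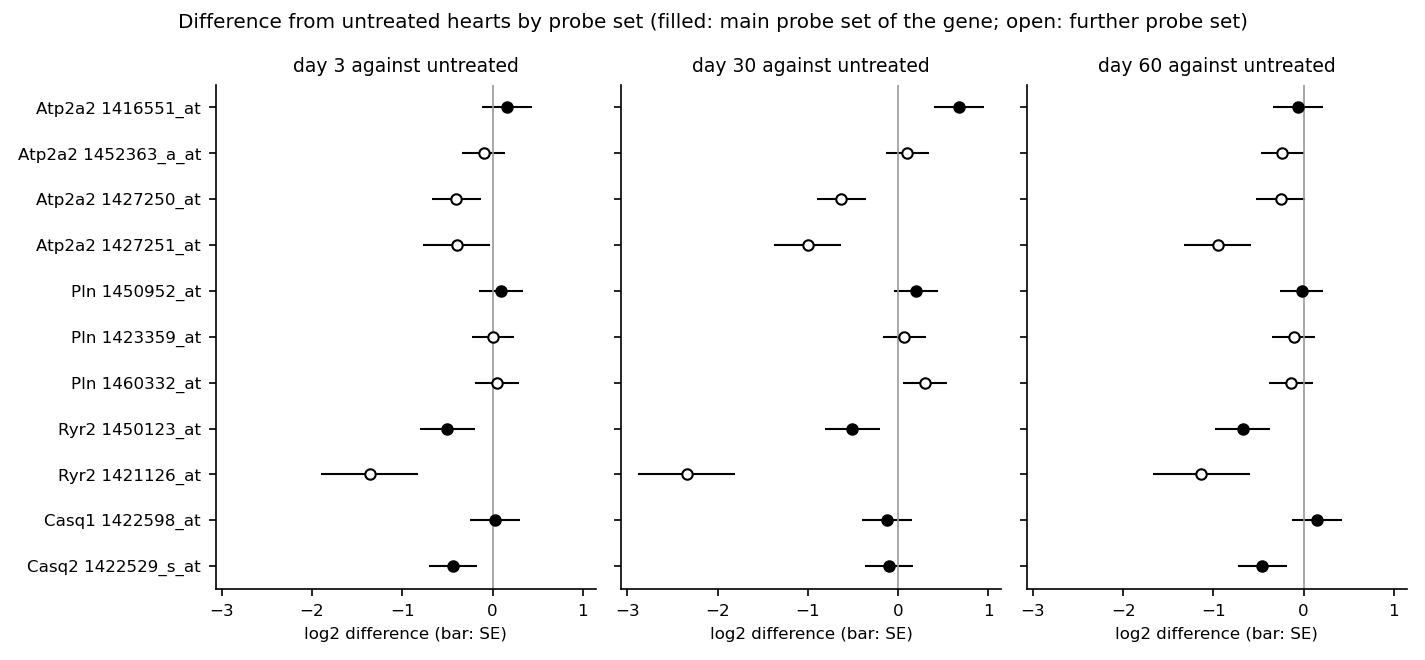
Fitted log2 difference from untreated hearts for each of the 11 probe sets on days 3, 30 and 60 (points; bars are the SE, 2 arrays against 2); filled points mark the main probe set of a gene. Both Ryr2 probe sets lie below 0 on all 3 days, and the 4 Atp2a2 probe sets spread from -1.0 to 0.67 on day 30.

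The stretches around the start sites of Ryr2, Casq2 and Pln are shown because the first pair stood lower after ligation on days 3 and 60 and the last stayed near its untreated level. They run from 250 bases before to 50 bases after the start, as RefSeq places it on GRCm38.p6, and are written 5′ to 3′ on the strand of the gene. Such a stretch was found for 4 of the 5 members, with Casq1 the other and none for Atp2a2. Both strands were searched for the E-box CANNTG, for the TATA box core TATAAA, for the GATA site GATAAG, and for the consensus sites called MEF2 and CArG. Capitals mark the matches.
Ryr2, chr13:12106896-12107195, minus strand: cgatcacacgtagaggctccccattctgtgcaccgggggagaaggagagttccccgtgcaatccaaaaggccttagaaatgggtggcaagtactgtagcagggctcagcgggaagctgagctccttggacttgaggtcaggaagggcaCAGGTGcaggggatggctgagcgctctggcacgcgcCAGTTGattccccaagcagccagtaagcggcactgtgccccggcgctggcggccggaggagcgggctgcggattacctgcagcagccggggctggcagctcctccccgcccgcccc
Casq2, chr3:102086165-102086464, plus strand: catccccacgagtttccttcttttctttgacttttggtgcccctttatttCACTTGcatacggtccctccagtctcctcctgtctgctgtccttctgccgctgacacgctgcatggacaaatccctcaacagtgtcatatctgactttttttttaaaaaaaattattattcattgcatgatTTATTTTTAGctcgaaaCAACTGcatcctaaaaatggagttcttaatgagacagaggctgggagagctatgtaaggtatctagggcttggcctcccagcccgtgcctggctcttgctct
Pln, chr10:53337436-53337735, plus strand: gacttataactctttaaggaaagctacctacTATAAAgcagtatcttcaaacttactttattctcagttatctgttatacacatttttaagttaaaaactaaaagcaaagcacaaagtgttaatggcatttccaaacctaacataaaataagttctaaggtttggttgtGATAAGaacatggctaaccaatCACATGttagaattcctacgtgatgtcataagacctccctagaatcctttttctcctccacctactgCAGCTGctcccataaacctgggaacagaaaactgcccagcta

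Each of the 3 stretches held 2 E-boxes, a motif found in 72.3% of all 32851 such stretches. The longest capital run of Casq2 is a match to the MEF2 consensus, which begins 69 bases before the start site, overlaps none of the other matches, and occurs in 3.19% of all stretches. Pln held TATAAA, found in 13.6%, and GATAAG, found in 7.44%. The stretch of Ryr2 held E-boxes only, and CArG, found in 1.63%, had no match in any of the 3. A match describes these letters and does not show that a factor binds.

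Casq1, the calsequestrin of fast skeletal muscle, had signals between 195 and 379.9 in this ventricle. Its probe set, 1422598_at, gave 195 (C57BL/6) and 379.9 (MRL/MpJ) before ligation, then 206.1 and 377.3 on day 3, 233.6 and 263.2 on day 30, and 277.2 and 338.2 on day 60. MRL/MpJ stood higher in each of the 4 pairs, by a log2 of 0.87, 0.79, 0.15 and 0.26 in time order, although the ranges of the strains overlapped. Of the 5 members 1 was thus higher in MRL/MpJ in all pairs, beside 8.53% of all genes. The fitted difference was a log2 of 0.52, or 1.43-fold (SE 0.19, 4 arrays against 4, 95% interval 0.070 to 0.97, unadjusted p = 0.0288, limma adjusted p = 0.541).

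Fast skeletal muscle markers were checked beside Casq1. Of 11 measured markers 5 passed the filter, and the summed signal of the list was 5836 to 10940 in MRL/MpJ and 6755 to 9245 in C57BL/6, most of it from the enolase gene Eno3. The troponin gene Tnnc2 gave 394.4 and the light chain gene Mylpf 210.1 in C57BL/6 on day 60, against at most 86.2 and 127.3 in the other arrays. These markers were picked after their values were seen, and that array had the highest Casq1 signal of the C57BL/6 arrays. Between the strains the 5 kept markers had a median log2 of -0.33 for MRL/MpJ minus C57BL/6, with 4 of 5 below 0. The troponin gene Tnnt3 and Mylpf passed the filter only through C57BL/6 on days 30 and 60. Their signals there were 145.8 and 216.7 for Tnnt3 and 127.3 and 210.1 for Mylpf. In MRL/MpJ they reached at most 61.4 and 50.1. For these genes being kept and standing lower in MRL/MpJ went together, so the direction of the kept markers cannot be set against that of Casq1. The part of skeletal muscle RNA in the Casq1 signal was not tested.

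The other members did not separate the strains. MRL/MpJ minus C57BL/6 was a log2 of -0.24 for Atp2a2 (SE 0.19; -0.074 without either day 30 array), -0.012 for Pln (SE 0.17), 0.090 for Ryr2 (SE 0.21) and -0.020 for Casq2 (SE 0.19), with limma adjusted p = 0.788, 0.996, 0.941 and 0.992. Atp2a2 stood higher in MRL/MpJ in 1 of 4 pairs, and Pln, Ryr2 and Casq2 each in 2 of 4. The 95% intervals reached from -0.69 to 0.21 for Atp2a2 and from -0.41 to 0.59 for Ryr2, so moderate differences between strains were not detectable with these arrays.

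**Figure D3:**
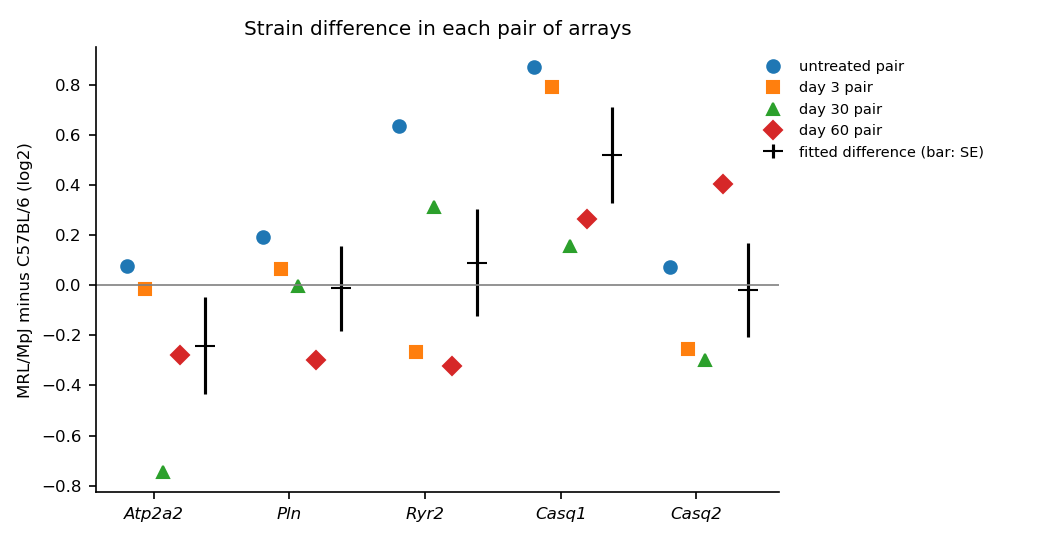
Log2 difference MRL/MpJ minus C57BL/6 in each of the 4 pairs of arrays for the main probe set of each member (symbols by time point), with the fitted difference and its SE (black). Casq1 lies above 0 in 4 of 4 pairs, and the other members have pairs on both sides of 0.

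Among changes within a strain, 1 array against 1, the main probe sets of the members passed a 2-fold limit only for Atp2a2 in C57BL/6 on day 30 (2.12-fold) and for Ryr2 in MRL/MpJ on day 60 (0.449-fold). In C57BL/6 the limit was passed by 1.33% of all genes downward and 2.43% upward on day 3, by 6.94% and 7.91% on day 30, and by 2.11% and 3.64% on day 60. In MRL/MpJ the shares were 2.64% and 4.98% on day 3, 2.51% and 3.09% on day 30, and 2.86% and 4.56% on day 60. Of the further probe sets, Ryr2 1421126_at lay past 2-fold lower in 5 of its 6 changes, all but MRL/MpJ on day 60, and Atp2a2 1427251_at in 2 of 6, C57BL/6 on days 30 and 60. Among all probe sets tested the share past 2-fold lower was 1.65%, 8.09% and 2.22% on days 3, 30 and 60 in C57BL/6, and 3.16%, 2.7% and 2.61% in MRL/MpJ. None of these changes has a replicate.

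Across the 8 arrays Atp2a2 and Pln followed each other most closely of the 10 pairs of members, with r = 0.70 (Spearman 0.86), and r = 0.91 over 7 arrays without C57BL/6 day 30. Ryr2 and Casq2 gave r = 0.41, or 0.64 over those 7 arrays, and Casq1 lay between -0.30 and 0.11 with the other members. These are descriptions of arrays that share a time course and a scaling. The genes most like a member were chosen by the highest Pearson r over the 8 arrays. For Atp2a2 they were Ap2a2, which encodes an adaptor subunit of endocytosis, the myoglobin gene Mb and Cdc26, a cell cycle gene, with r of 0.976 to 0.979, and 0.858 to 0.950 without C57BL/6 day 30. For Pln they were Tmem150b, the alpha myosin heavy chain gene Myh6 and the transcription factor gene Nfyb (r 0.930 to 0.972). For Ryr2 they were Bckdhb, an enzyme gene of branched-chain amino acid breakdown, Macrod1 and the potassium channel gene Kcnh2 (0.930 to 0.940). For Casq2 they were the dysferlin gene Dysf, Arl2 and Dnttip2 (0.919 to 0.941), and for Casq1 they were Mtm1, the myotubularin gene, Tmem216 and Stx8 (0.939 to 0.952). Several had low signals: Tmem150b 25.9 to 182.9, Nfyb 65.6 to 153, Dnttip2 111.9 to 157.3, Mtm1 72.9 to 285.9 and Tmem216 37.6 to 270.5. All were picked as the highest r among the genes kept, so these r values do not show shared regulation.

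Other genes of calcium cycling were taken as a list of 64, of which 48 had a probe set of their own and 40 passed the filter. After ligation 25 of the 40 stood below untreated and 15 above, with a median log2 of -0.21, beside -0.027 and 53.2% below over all genes tested. limma called 0 of the 40 at an adjusted p under 0.05, beside 0.195% of all genes. At an unadjusted p under 0.05 it counted 2, both lower, beside 10.4% of all genes in either direction. In all ligated arrays 9 of the 40 lay lower than in untreated hearts without overlap, beside 7.11% of all genes, and 0 lay higher, beside 6.71%. The medians by day were -0.22, -0.17 and -0.14 on days 3, 30 and 60, beside 0.019, -0.0058 and -0.064 over all genes.

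The 3 listed genes with the smallest p among those below untreated were Trdn, Asph and Tmem38a. Trdn encodes triadin, which ties calsequestrin to the ryanodine receptor. It gave 1571 and 1554 in untreated C57BL/6 and MRL/MpJ hearts, and its ligated arrays ranged from 576 to 1248 without overlap. The difference was a log2 of -0.74 (SE 0.24, limma adjusted p = 0.341), and 4 further Trdn probe sets that passed the filter gave -0.76 to -0.26. Asph, whose products include junctin, gave 991 and 1612 in untreated hearts and 706 to 958 in ligated ones (log2 -0.63, SE 0.22, limma adjusted p = 0.368). Its 4 further probe sets lay nearer to 0, from -0.25 to 0.25. Tmem38a, a potassium channel of the sarcoplasmic reticulum, gave 2004 and 1800 in untreated hearts and 815 to 1627 in ligated ones (log2 -0.65, SE 0.29, limma adjusted p = 0.480). Its further probe set gave -0.37, and there the ligated arrays (693 to 1200) overlapped the untreated ones (1463 and 1124).

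Above untreated, the 3 with the smallest p were Prkar1a, a regulatory subunit of protein kinase A (log2 0.39), Stim1, a calcium sensor of the store (0.64), and Nol3, an inhibitor of cell death (0.39), with limma adjusted p = 0.539, 0.555 and 0.559. The further Prkar1a probe set gave -0.0044 and that of Stim1 1.10. Between the strains the list had a median of 0.059, with 13 of 40 below 0, beside -0.018 and 53.3% below 0 over all genes. There limma called 0, beside 0.22% of all genes, and counted 1 at an unadjusted p under 0.05, beside 7.96%. The smallest p among those higher in MRL/MpJ belonged to Hax1, whose product binds phospholamban (0.43), Cacna1d, a calcium channel subunit (0.48), and Prkar1a (0.37). The smallest p among those lower in MRL/MpJ belonged to Jph2 (-0.36) and Jph1 (-0.32), the junctophilins that hold the store to the cell membrane, and Cacna1c, the main cardiac L-type channel subunit (-0.35). Their limma adjusted p lay between 0.616 and 0.744.

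**Figure D4:**
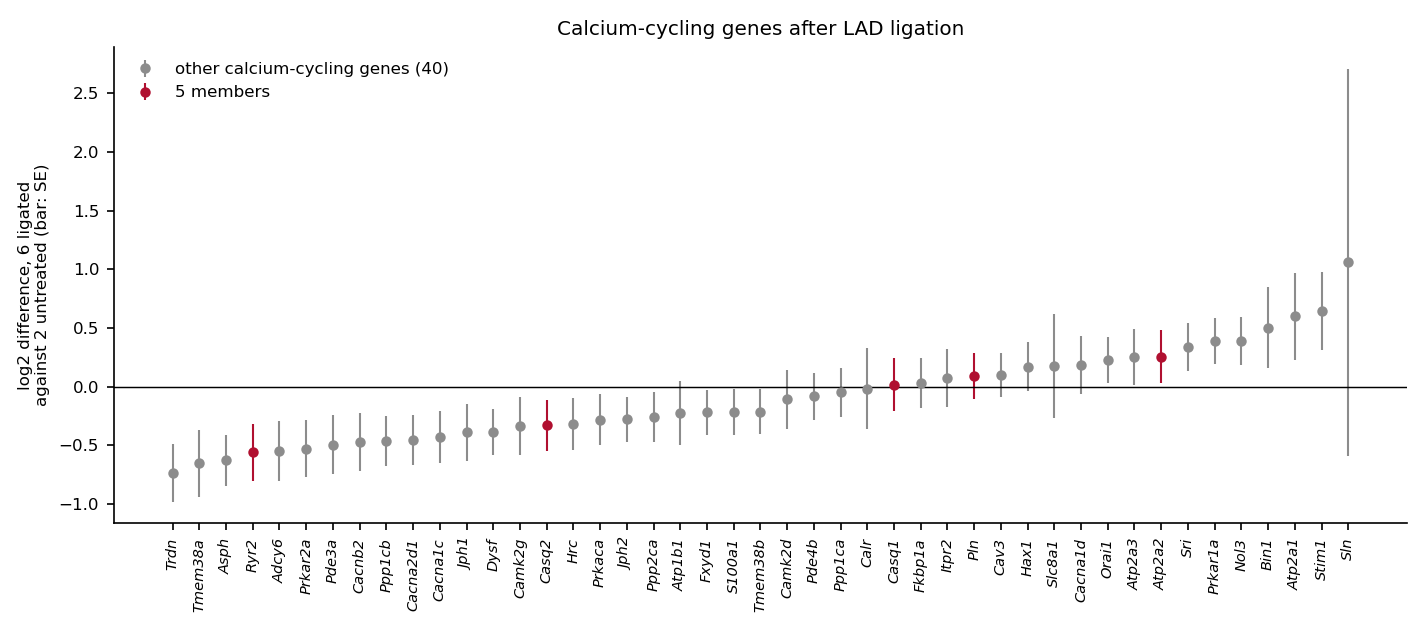
Fitted log2 difference between the 6 ligated and 2 untreated arrays for the 5 members (red) and 40 other calcium-cycling genes (grey), ordered by size; bars are the SE. Ryr2 lies near the low end beside Trdn, Tmem38a and Asph, and Sln has by far the widest error.

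Isoforms and partners of the members were read as well. Sln, the gene for sarcolipin, a small inhibitor of the pump that belongs to atrial and skeletal muscle, gave 251 and 235 in untreated C57BL/6 and MRL/MpJ hearts. It gave 858 and 6.1 on day 3, 3078 and 3254 on day 30, and 6.7 and 2932 on day 60. Its main probe set thus switched between about background and high from array to array (log2 1.06, SE 1.65, limma adjusted p = 0.858). A further Sln probe set, which did not pass the filter, gave 9.8 to 68.9 over the 8 arrays and did not show the switching. The summed signal of 8 atrial markers, Sln among them, was 5005 to 7645 in untreated and 10563 to 53237 in ligated hearts. Most of it came from the natriuretic peptide gene Nppa. In the MRL/MpJ day 3 and C57BL/6 day 60 arrays, where the main Sln probe set was lowest, Myl4 gave 247.5 and 153.6 and Myl7 97.6 and 11.9. Untreated C57BL/6 and MRL/MpJ hearts gave 483 and 759.1 for Myl4 and 442.3 and 532.5 for Myl7. Nppa and Dkk3 stood above both untreated arrays there. These markers were named after their values were seen. The part of atrial tissue in the Sln signal was not tested. Atp2a1, the pump of fast skeletal muscle, gave 173 to 583 over the 8 arrays (log2 0.60 after ligation, SE 0.37, limma adjusted p = 0.619). Ryr1, the skeletal release channel, gave at most 75.2 and did not pass the filter.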

How the data were processed

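The deposited values are signal intensities on a linear scale, made by the authors with MAS5 per the submitters' processing notes; scaling target and detection calls are not given in the sources used here. The 2% trimmed mean was 247.2 to 248.4 in every array and the median 112.8 to 139.5, so arrays had been scaled as a whole. Of 22626 probe sets, 20380 named 1 gene in the platform annotation, 691 several and 1555 none. Each gene was read by its probe set with the highest mean log2 value. An offset of 28.6 (the 20th percentile) was added before log2, and genes at or above 121 (the median) in at least 2 arrays were kept (8195).

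Tests used limma 3.58.1 in R 4.3.3 with Benjamini-Hochberg adjustment over all genes kept: strain and time point additively (3 residual degrees of freedom), or with a strain-by-ligation term (2). The 11 probe sets were also fitted one by one over the 13280 probe sets that passed the filter. The procedure was tested on simulated data. Alternatives were 2 normalizations, 2 offsets, 2 filters, 2 priors, the mean of a gene's probe sets and each array left out; the further probe sets, the reference to cardiomyocyte markers the probe set fit without C57BL/6 day 30, the ratio without each array and the within-strain changes of each probe set were added after seeing the data. Members, lists and tests were chosen with earlier results of these data known. Named are all members, Sln, Atp2a1 and Ryr1, the 3 listed genes with the smallest p in each direction after ligation and between strains, and the 3 genes most like each member; markers were named after their values were seen. The number of arrays limits the precision.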

Additional observations from a re-analysis of the deposited data

Results flagged for a closer look

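The Casq1 signals of ligated hearts lay on opposite sides of the untreated one in the 2 strains, a difference that did not pass the test. In C57BL/6 its 3 ligated arrays (206.1, 233.6 and 277.2) all lay above the untreated one (195), and in MRL/MpJ all 3 (377.3, 263.2 and 338.2) lay below (379.9). The strain difference in the ligated pairs minus that in the untreated pair was a log2 of -0.47 (SE 0.47, limma adjusted p = 1, unadjusted 0.359), the day 3 changes were a log2 of 0.070 in C57BL/6 and -0.0092 in MRL/MpJ, within the fitted spread of a difference (0.39), and each strain's changes share a single untreated array. No group held enough arrays to test for outlying samples.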

How the results depend on the processing

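limma called 0 of the 5 members in all 7 comparisons under each of the 10 alternative settings. With 1 ligated array left out it called no member for ligated against untreated hearts, where it called 0 to 68 of all genes. With any 1 array left out it called no member between strains, where it called 7 to 14 of all genes. Left-out fits of single days can leave 1 array in a group, so their calls are not counted here. The strain difference of the response could not be fitted without an untreated array. Over the alternative settings the count over all genes ranged from 1 to 104 for ligated against untreated (16 as reported) and 0 to 26 on day 3 (0). It ranged from 0 to 24 on day 30 (1), 0 to 77 on day 60 (3) and 7 to 43 between strains (18). The lowest limma adjusted p of a member over the alternative settings was 0.246. It belonged to Ryr2 in ligated against untreated hearts, with the mean of all probe sets. Ryr2 and Casq2 stayed below untreated for ligated hearts, and Casq1 higher in MRL/MpJ, in every setting run. Several directions turned, most of values near 0, and the cause was not tested. Those of Atp2a2 on day 30 (0.67 as reported) and of the Ryr2 response (-0.73) turned only where further probe sets were read, alone or in the mean of all probe sets. The Atp2a2 day 30 difference kept its sign under quantile normalization but fell to 0.039. Under quantile normalization, ligated against untreated was -0.021 for Atp2a2, -0.037 for Pln and -0.022 for Casq1, Casq1 on day 3 -0.019, Pln on day 30 -0.092, and the strain difference of the response of Casq2 0.0051. Median centring gave Casq1 -0.016 for ligated hearts and -0.030 on day 3, and 0.025 for Pln and 0.017 for Casq2 between strains. With the mean of all probe sets Atp2a2 was -0.26 for ligated hearts, -0.18 on day 3 and -0.21 on day 30, and Ryr2 -0.0067 between strains and 0.060 for the strain difference of the response. Relative to cardiomyocyte markers, day 60 gave 0.13 for Atp2a2 and 0.17 for Pln, strain 0.021 for Pln and 0.013 for Casq2, and the strain difference of the response 0.081 for Pln and 0.23 for Casq2. By probe set, Atp2a2 1452363_a_at gave -0.078 for ligated hearts and -0.097 on day 3; 1427250_at gave -0.43, -0.40 on day 3, -0.63 on day 30, 0.024 for strain and 0.33 for the response; 1427251_at gave -0.78, -0.40, -1.0 and 0.31 for the response. Pln 1423359_at gave -0.013 for ligated hearts, and Ryr2 1421126_at -0.10 for strain and 0.85 for the response. The Atp2a2 to Pln ratio after ligation was -0.17, -0.065 and -0.15 with Atp2a2 1452363_a_at (against Pln 1450952_at, 1423359_at and 1460332_at), -0.52, -0.42 and -0.50 with 1427250_at, and -0.87, -0.77 and -0.85 with 1427251_at; between strains it was 0.035, 0.074 and 0.12 with 1427250_at.

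Leaving out 1 array at a time, differences that crossed 0 ranged from -0.053 to 0.37 (Atp2a2, day 3), -0.28 to 0.14 (Atp2a2, day 60), -0.037 to 0.23 (Pln, day 3), -0.21 to 0.17 (Pln, day 60), -0.044 to 0.23 (Pln, ligated), -0.080 to 0.084 (Pln, strain), -0.091 to 0.23 (Ryr2, strain), -0.20 to 0.26 (Casq1, day 3), -0.37 to 0.12 (Casq1, day 30), -0.085 to 0.38 (Casq1, day 60), -0.22 to 0.25 (Casq1, ligated), -0.28 to 0.089 (Casq2, day 30), -0.16 to 0.074 (Casq2, strain) and -0.35 to 0.0023 (Casq2, response). Without C57BL/6 day 30, Atp2a2 1452363_a_at on day 30 was -0.023 and Pln 1423359_at for ligated hearts 0.016. The response could not be fitted without an untreated array. The labels give no replicate numbers, so arrays could not be paired by replicate, and strain pairs were matched by time point alone. The Atp2a2 to Pln ratio ranged from 0.027 to 0.22 after ligation and from -0.31 to -0.059 between strains. Without crossing 0, Atp2a2 ranged from 0.044 to 0.47 (ligated), 0.34 to 1.01 (day 30) and -0.35 to -0.074 (strain), Ryr2 from -0.86 to -0.14 (day 3), -0.87 to -0.14 (day 30) and -1.04 to -0.31 (day 60), each lower without the untreated C57BL/6 array and higher without the untreated MRL/MpJ one, and Casq2 from -0.59 to -0.28 (day 3) and -0.74 to -0.18 (day 60). Signals near the offset of 28.6 are compressed.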
